A study of Mus musculus with 12 samples.

Results

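Haptoglobin (Hp), the orosomucoids Orm1 and Orm2, lipocalin 2 (Lcn2), serum amyloid A3 (Saa3) and the interleukin-1 receptor antagonist (Il1rn) are 6 genes for acute-phase or anti-inflammatory secreted proteins that are expressed by fat cells as well as by liver or immune cells. They were followed through 4 treatments and 3 passages of mouse 3T3-L1 adipocytes. The 6 genes were chosen by name after 4 of them had been noted as lower with a delta-6-desaturase inhibitor than with vehicle, so that comparison is given below as a description without a test. A gene was taken by the symbol in the array annotation. Each of the 6 had 1 transcript cluster, out of 22104 clusters in the table that stood for 19480 named genes.

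3T3-L1 is a mouse preadipocyte line that becomes lipid-filled adipocytes under a hormone cocktail, and each treatment ran from the start of differentiation to RNA extraction at day 8. The groups were ALA plus inhibitor (50 µM alpha-linolenic acid with 5 µM of the inhibitor), ALA alone at 50 µM, inhibitor alone at 5 µM, and control (ethanol and DMSO), each with 3 arrays from cells of passage 6, 7 and 8. After the first days all cultures were kept in medium with insulin at 5 µg/ml. Delta-6-desaturase takes alpha-linolenic acid into the pathway to longer n-3 fatty acids. The inhibitor is not named in the labels. The labels state albumin, at 2%, for the ALA medium only, and do not say whether the other groups received albumin or the same vehicles. The cultures are all of 1 cell line, so the spread between replicates is that between passages of that line.

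Acute-phase proteins are secreted proteins whose blood levels change in inflammation. Interleukin-6 acting through STAT3, interleukin-1 acting through NF-kB, glucocorticoids and the C/EBP transcription factors drive their genes, best known from liver. C/EBP factors also drive adipocyte differentiation, and haptoglobin, lipocalin 2 and serum amyloid A3 are well-known products of adipose tissue. Hp binds free haemoglobin, Orm1 and Orm2 encode alpha-1-acid glycoproteins that carry small lipophilic molecules, and Lcn2 binds iron-loaded bacterial siderophores. Saa3 is the serum amyloid A made mainly outside the liver, and Il1rn occupies the interleukin-1 receptor without signalling.

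Promoter windows from RefSeq (GRCm38.p6, 250 bases before to 50 after an annotated start) were held for 4 of the 6 genes, Orm2, Lcn2, Saa3 and Il1rn. All 4 of these genes are shown. Across the arrays Orm2 moved with Hp and Orm1, Lcn2 did so in part, and Saa3 and Il1rn did not. Whether the motifs bear on these patterns was not tested. Capitals mark the C/EBP core TTGCNNAA read on either strand. The Orm2 window is chr4:63362199-63362498 (plus strand), that of Lcn2 is chr2:32387690-32387989 (minus strand), that of Saa3 is chr7:46715627-46715926 (minus strand), and the Il1rn window shown, 1 of 3 for that gene, is chr2:24336610-24336909 (plus strand).
Orm2: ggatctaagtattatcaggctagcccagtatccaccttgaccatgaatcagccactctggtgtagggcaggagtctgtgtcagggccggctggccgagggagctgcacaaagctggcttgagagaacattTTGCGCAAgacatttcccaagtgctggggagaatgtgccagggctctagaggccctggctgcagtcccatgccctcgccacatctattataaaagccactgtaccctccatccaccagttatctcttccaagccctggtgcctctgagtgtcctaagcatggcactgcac
Lcn2: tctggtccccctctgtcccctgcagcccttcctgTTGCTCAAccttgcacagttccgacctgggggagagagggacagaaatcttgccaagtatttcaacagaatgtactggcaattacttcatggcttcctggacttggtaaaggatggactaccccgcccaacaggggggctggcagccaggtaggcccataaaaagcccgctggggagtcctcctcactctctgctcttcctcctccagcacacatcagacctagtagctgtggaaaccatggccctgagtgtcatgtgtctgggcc
Saa3: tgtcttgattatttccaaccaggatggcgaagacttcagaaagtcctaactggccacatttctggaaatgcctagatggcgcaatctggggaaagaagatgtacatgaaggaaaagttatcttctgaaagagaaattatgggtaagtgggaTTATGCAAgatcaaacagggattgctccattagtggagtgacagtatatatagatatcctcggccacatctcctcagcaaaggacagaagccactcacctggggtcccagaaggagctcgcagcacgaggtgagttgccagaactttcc
Il1rn: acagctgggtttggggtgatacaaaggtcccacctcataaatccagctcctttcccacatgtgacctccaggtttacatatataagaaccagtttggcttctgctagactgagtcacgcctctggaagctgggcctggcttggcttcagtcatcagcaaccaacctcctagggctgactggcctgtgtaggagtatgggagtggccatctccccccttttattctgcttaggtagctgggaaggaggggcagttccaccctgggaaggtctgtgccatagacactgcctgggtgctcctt

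The C/EBP core stood in 3 of the 6 member windows and in 10.8% of all 32851 windows of the table. It began 120 bases before the start in Orm2, as the palindrome TTGCGCAA, 216 bases before it in Lcn2 and 99 bases before it in Saa3, where it reads on the other strand. It was not in any of the 3 Il1rn windows. The NF-kB motif GGNNNTTCC, on either strand, was in 4 of the 6 windows, those of Saa3 and all 3 of Il1rn (2 of which overlap), against 18.5% of all windows. The 2 overlapping windows hold the same match, GGTTTTTCC, 50 bases before the start of 1 window and after that of the other, so it is counted in both. The glucocorticoid response core ACANNNTGT was in 1 of 6, the Lcn2 window, 152 bases before the start (6.85% of all windows), and the STAT motif TTCNNNGAA was in 0 of 6 (8.3% of all windows). These are matches of letters, and binding was not measured.

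The table of log2 signals ran from 1.56 to 13.4. Of the cell type markers, all 11 measured adipocyte genes lay above the median cluster mean of 6.19, as did 6 of 8 preadipocyte genes, 0 of 9 macrophage genes, 1 of 9 neutrophil genes and 0 of 10 hepatocyte genes. The array of ALA at passage 7 stood apart from the rest, correlating at 0.976 to 0.987 with the other arrays, while the other 11 correlated at 0.989 to 0.994 among themselves. The treatment differences of the 6 genes that use it are therefore also given without it, while the list counts, shares of spread and correlations below include it. Hp, Orm1 and Lcn2 were bright, with 91.0%, 85.5% and 97.3% of clusters at a lower mean, Orm2 and Saa3 lay near the middle (54.8% and 46.9%), and Il1rn was dim, with 8.59% of clusters below its mean of 3.29.

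The haemoglobin scavenger Hp was lower with the inhibitor in every passage, whether or not ALA was present. With ALA plus inhibitor its log2 signal was 9.05, 9.52 and 9.81 in passages 6, 7 and 8, against 9.69, 9.99 and 10.37 with ALA alone. Inhibitor alone gave 8.98, 9.61 and 9.75, against 9.81, 10.14 and 10.25 in control. The groups with and without the inhibitor overlapped under ALA, because the passage 8 array with inhibitor was above the passage 6 array without it. In the cells without ALA they did not overlap.

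Orm1 and Orm2, which lie beside each other on chromosome 4 and encode closely similar proteins, had the same layout. Orm1 was at 8.65, 8.74 and 9.25 with ALA plus inhibitor and at 9.24, 8.99 and 9.51 with ALA. It was at 8.67, 8.71 and 9.25 with inhibitor alone and at 9.28, 9.11 and 9.67 in control. Each passage was lower with the inhibitor than without it, though the ranges of the groups overlapped. Orm2 was at 6.15, 6.26 and 6.82 with ALA plus inhibitor and at 6.54, 6.71 and 7.11 with ALA. Inhibitor alone gave 5.85, 6.22 and 6.75 and control 6.58, 6.75 and 7.31. Again each passage was lower with the inhibitor and the ranges overlapped. Whether the probes of Orm1, Orm2 and the related Orm3 share signal was not tested, so the pair may not be independent measurements.

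The siderophore-binding lipocalin Lcn2 spanned a narrow range. Its log2 signal was 10.76, 11.15 and 10.80 with ALA plus inhibitor, against 11.33, 11.08 and 11.08 with ALA. With inhibitor alone it was 10.83, 10.81 and 10.77, against 11.19, 11.06 and 10.92 in control. The inhibitor arrays lay below all control arrays, whereas under ALA the passage 7 array with inhibitor was above its partner and the groups overlapped.

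Saa3 and Il1rn followed other patterns. Saa3 was at 5.91, 6.17 and 5.91 with ALA plus inhibitor, at 5.70, 6.57 and 5.85 with ALA, at 5.93, 5.96 and 5.08 with inhibitor alone and at 6.10, 6.37 and 5.73 in control. The highest value of each group was that of passage 7, and the groups overlapped. Il1rn was at 3.87, 3.29 and 3.69 with ALA plus inhibitor and at 3.07, 2.87 and 3.05 with ALA, so these groups did not overlap and the ALA plus inhibitor arrays were the higher ones. Without ALA the order was the other way round, with 2.91, 3.31 and 3.00 under inhibitor alone and 3.35, 3.52 and 3.54 in control, again with no overlap. Il1rn lay near the low end of the table, where RMA compresses differences. Its mean of 3.29 was within the range of the macrophage marker genes, 2.87 to 5.23. Whether its signal stood above background was not tested.

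**Figure D1:**
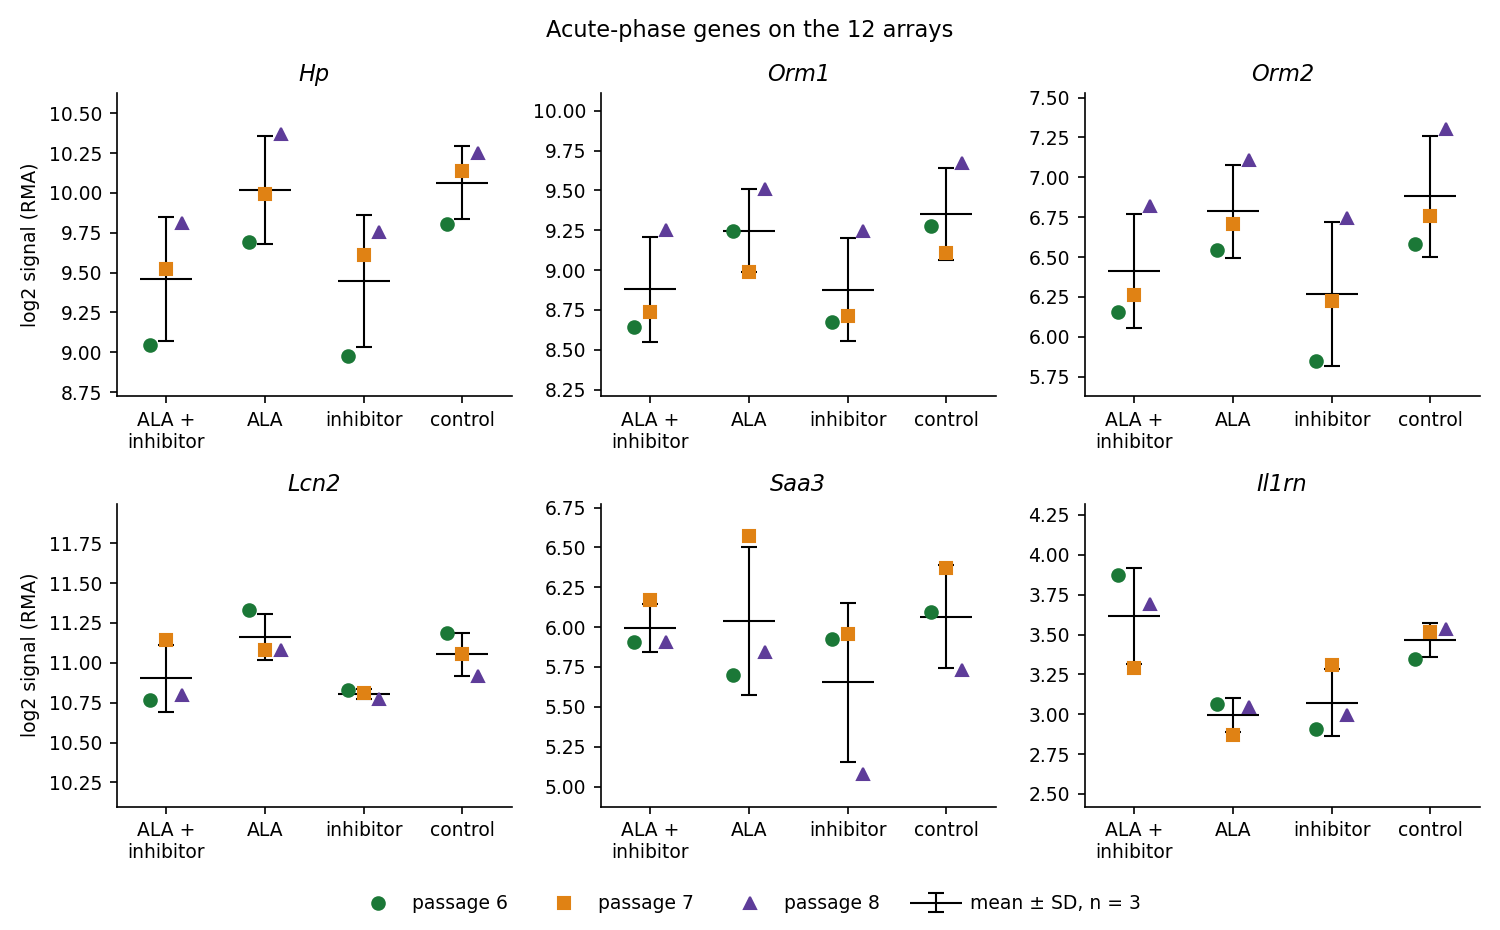
Log2 signal (RMA) of the 6 genes on the 12 arrays, by treatment, with a symbol for each passage and a line and bars for the mean ± SD (n = 3). Hp, Orm1 and Orm2 are lower in both inhibitor groups at each passage and highest at passage 8, while the Il1rn arrays with ALA alone, at 2.87 to 3.07, lie below those with ALA plus inhibitor and those in control.

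By group means, Hp averaged 9.46 ± 0.39 with ALA plus inhibitor, 10.02 ± 0.34 with ALA, 9.45 ± 0.41 with inhibitor alone and 10.06 ± 0.23 in control (SD, n = 3 each). Ordered from high to low, control and ALA came first and the inhibitor groups last for Hp, Orm1 and Orm2. In these 3 genes only the step between ALA and ALA plus inhibitor (0.56, 0.37 and 0.37) was larger than the larger SD of the 2 neighbours. For Lcn2 and Saa3 no step between neighbouring groups passed that mark. For Il1rn the order was ALA plus inhibitor at 3.62 ± 0.30, control at 3.47 ± 0.10, inhibitor at 3.07 ± 0.21 and ALA at 2.99 ± 0.11 (SD, n = 3 each), and only the step of 0.39 from control to inhibitor exceeded the SD.

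The comparison of ALA plus inhibitor with ALA alone asks what the inhibitor does in cells given the substrate of the desaturase, and its 6 arrays are not those in which the genes were first noted. Of the 6 genes, 5 had a lower mean with the inhibitor, where 53.4% of all clusters were lower, and none passed an adjusted p of 0.05 in limma (0 of 22104 clusters did, and 1607 had an unadjusted p under 0.05, Hp and Il1rn among them). The median difference of the 6 was -0.31 on the log2 scale, beside -0.02 over all clusters. In bulk RNA, fewer cells that express a gene and less RNA of it per cell cannot be told apart.

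Hp differed by -0.56 (SE 0.24, limma adjusted p = 0.684), which is 0.679 times the linear signal with ALA alone. Within passages 6, 7 and 8 the differences were -0.65, -0.47 and -0.56. Without the ALA array of passage 7 the fitted difference was -0.57. So all 3 passages had less Hp signal with the inhibitor, but the difference did not pass the adjusted threshold. Orm1 differed by -0.37 (SE 0.22, limma adjusted p = 0.707), with -0.60, -0.25 and -0.26 by passage and a fitted value of -0.50 without the ALA array of passage 7. Orm2 differed by -0.37 (SE 0.26, limma adjusted p = 0.735), with -0.39, -0.44 and -0.29 by passage and -0.41 without that array. Hp, Orm1 and Orm2 were thus lower in every passage, as were 18.1% of all clusters.

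Lcn2 differed by -0.26 (SE 0.13, limma adjusted p = 0.690), with -0.57, 0.07 and -0.28 by passage and -0.30 without that array. Saa3 had no steady direction, with 0.21, -0.40 and 0.06 by passage. Its fitted difference was -0.04 (SE 0.27, limma adjusted p = 0.973) and 0.22 without the ALA array of passage 7. Il1rn was the 1 gene with a higher mean, by 0.62 (SE 0.16, limma adjusted p = 0.653), with 0.80, 0.42 and 0.64 by passage and 0.56 without that array. It was the only one of the 6 genes under the unadjusted p of 0.01 named in the series design, which 0.498% of all clusters passed in the higher direction and 0.973% in the lower, and it lost that mark without the ALA plus inhibitor array of passage 6. Of the clusters past that mark 110 were higher and 215 lower, beside 144 and 163 with arrays centred on their medians. Groups that did not overlap, with the inhibitor arrays higher, made up 4.75% of all clusters.

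Arrays of the same passage deviated together in this comparison (correlations of 0.16, 0.16 and 0.24), so the same test was made with passage as a block. The differences are then unchanged. The errors are smaller except for Il1rn, whose SE was 0.157 without the block and 0.164 with it. Under that fit 4 of the 6 genes had an unadjusted p under 0.01, Hp, Orm1 and Orm2 lower and Il1rn higher, where 561 clusters passed that mark. Their adjusted p-values were 0.306, 0.344, 0.330 and 0.330 in limma, and 0 clusters passed 0.05. The block fit without the ALA array of passage 7 left 3 of the 6 genes under 0.01.

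**Figure D2:**
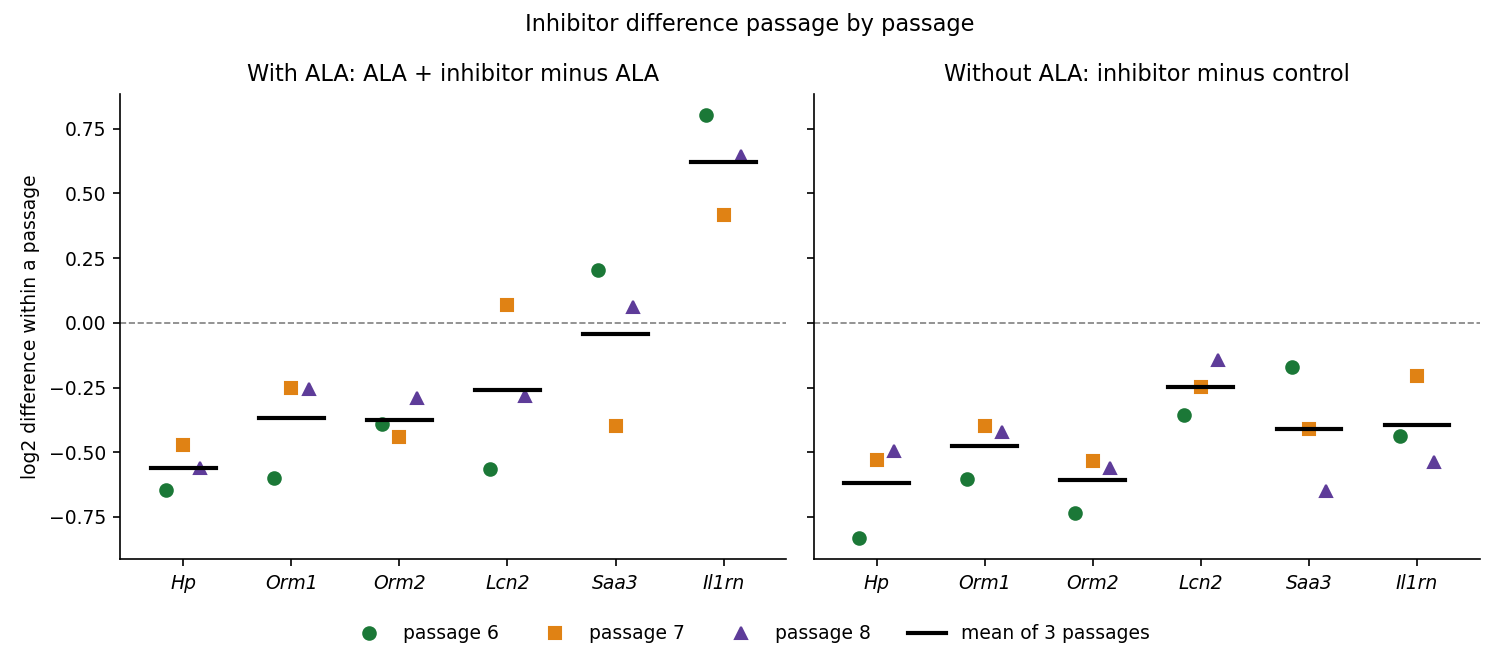
Log2 difference between cultures with and without the inhibitor within each passage, with ALA (left) and without it (right). Symbols are passages and lines are means of 3 passages. Hp, Orm1 and Orm2 lie below 0 at each passage in both panels, and Il1rn lies above 0 with ALA (0.42 to 0.80) and below 0 without it (-0.54 to -0.21).

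Inhibitor alone against control is the comparison in which Hp, Orm1, Lcn2 and Il1rn were first noted, so its values are a description. All 6 genes had a lower mean, as had 50.8% of all clusters, and all 6 were lower in each of the 3 passages, where 15.9% of all clusters were. The differences were -0.62 for Hp, -0.47 for Orm1, -0.61 for Orm2, -0.25 for Lcn2, -0.41 for Saa3 and -0.39 for Il1rn on the log2 scale. Their median was -0.44, beside 0.00 over all clusters to the precision given. For Hp, Lcn2 and Il1rn the 3 inhibitor arrays were below the 3 control arrays, a pattern that 4.97% of all clusters had. Over all clusters past an unadjusted p of 0.01 in limma, 71 were higher and 118 lower, beside 125 and 78 with arrays centred on their medians. In linear terms Hp was at 0.651 times, Orm1 at 0.720 times and Orm2 at 0.656 times the control signal.

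Hp, Orm1 and Orm2 were lower in all 3 passages with and without ALA, as were 4.52% of clusters. The values without ALA were those through which genes were chosen, so nothing is read from that share. The inhibitor difference with ALA minus that without it was 0.06 for Hp (95% confidence interval -0.69 to 0.81), 0.11 for Orm1 and 0.24 for Orm2. The standard errors were 0.35, 0.31 and 0.37 in this fit without passage, and 0.15, 0.14 and 0.14 with passage as a block. Its sign and size are not resolved for these genes in either fit. For Lcn2 it was -0.01 and for Saa3 0.37. Without the ALA array of passage 7 these values were 0.05 for Hp, -0.02 for Orm1, 0.20 for Orm2, -0.05 for Lcn2, 0.63 for Saa3 and 0.95 for Il1rn. For Il1rn it was 1.02 (95% confidence interval 0.53 to 1.50), and the opposite signs in every passage were seen in 2.5% of clusters. The limma adjusted p of the Il1rn value over all clusters was 0.9999, and it contains the comparison through which the gene was chosen.

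For 5 of the genes the difference between ALA and control was within its standard error, and 0 clusters were called by limma at an adjusted p of 0.05 (753 had an unadjusted p under 0.05). Hp differed by -0.05, Orm1 by -0.10, Orm2 by -0.09, Saa3 by -0.03 and Lcn2 by 0.11, with standard errors of 0.13 to 0.27 and limma adjusted p-values of 0.9998, and the signs of Hp, Orm1 and Orm2 turned with array weights. Of the 6 genes 5 had a lower mean, where 47.8% of clusters did, with differences of at most 0.10 in size for 4 of these 5. The 95% confidence interval for Hp ran from -0.58 to 0.48 in this fit without passage, where the SE was 0.24. With passage as a block the SE was 0.11. Il1rn differed by -0.47 (SE 0.16, limma adjusted p = 0.9998), with -0.28, -0.65 and -0.49 by passage. Without the ALA array of passage 7 the values were -0.03 for Hp, 0.03 for Orm1, -0.05 for Orm2, 0.15 for Lcn2, -0.29 for Saa3 and -0.41 for Il1rn. The Il1rn ALA arrays were below all control arrays, as in 2.91% of clusters. This comparison shares the ALA arrays with the one of ALA plus inhibitor against ALA, and the control arrays with that of the inhibitor alone.

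ALA plus inhibitor against inhibitor alone, where 51.9% of clusters had a lower mean, had no lower mean among the 6 genes. It gave 0.01 for Hp and 0.00 for Orm1, which turned slightly negative with arrays centred on their medians, 0.14 for Orm2 and 0.10 for Lcn2. Saa3 differed by 0.34 (SE 0.27), most of it from passage 8, where the difference was 0.83. Il1rn differed by 0.54 (SE 0.16, limma adjusted p = 0.9999), with 0.96, -0.02 and 0.69 by passage. It was the 1 gene of 6 under an unadjusted p of 0.01, beside 0.326% of clusters in the higher direction. The inhibitor arrays used here are those in which Hp, Orm1, Lcn2 and Il1rn had been noted as low, so these values and counts are not independent of the choice of genes. Set against control, ALA plus inhibitor had 5 of 6 lower means (51.5% of clusters). It gave -0.60 for Hp, -0.47 for Orm1 and -0.47 for Orm2, each lower in all 3 passages, as 15.8% of clusters were. Lcn2 was at -0.15, Saa3 at -0.07 and Il1rn at 0.15 in that comparison, and limma adjusted p-values were 0.9997 for all 6. The control arrays are also those of the comparison through which the genes were chosen, so these values do not stand as separate support. Same-passage arrays deviated together here too (0.12, 0.13 and 0.23), and with passage as a block the limma adjusted p-values were 0.410 for Hp, 0.426 for Orm1 and 0.426 for Orm2.

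Passage gave the only called changes among the 6 genes. With treatment in the model, Hp, Orm1 and Orm2 rose in passage 8 relative to passage 6, 3 of 6 genes, against 1.31% of all clusters called higher and 0.602% called lower. Hp averaged 10.05 ± 0.31 in passage 8 and 9.38 ± 0.43 in passage 6 (SD, n = 4 each). Its fitted difference was 0.67 (SE 0.09, limma adjusted p = 0.00727). Orm2 averaged 7.00 ± 0.26 in passage 8 and 6.28 ± 0.35 in passage 6 (SD, n = 4 each), a difference of 0.72 (SE 0.08, limma adjusted p = 0.00457), and its 4 arrays of passage 8 were all above those of passage 6. Orm1 averaged 9.42 ± 0.21 in passage 8 and 8.96 ± 0.35 in passage 6 (SD, n = 4 each), a difference of 0.46 (SE 0.09, limma adjusted p = 0.0317). The 4 arrays of a passage are 1 of each treatment, so these SDs include treatment differences.

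In all 4 treatments passage 8 was above passage 6 for these 3 genes. Hp and Orm2 also stepped up at passage 7 in all 4 treatments and Orm1 in 2 of them. Orm1 kept its call in 2 of 12 fits that each left out 1 array, those without the ALA array of passage 6 or of passage 7, with adjusted p-values of 0.0293 to 0.132 in limma over the 12, while Hp (0.00806 to 0.0418) and Orm2 (0.00552 to 0.0294) kept theirs in all 12. With treatment left out of the model none of the 3 was called (limma adjusted p = 0.161 for Hp, 0.212 for Orm1 and 0.0733 for Orm2).

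Lcn2, Saa3 and Il1rn did not pass the test between passages. Lcn2 differed by -0.14 (SE 0.11), Saa3 by -0.27 (SE 0.16) and Il1rn by 0.02 (SE 0.14), with limma adjusted p-values of 0.608, 0.481 and 0.966. Saa3 averaged 5.91 in passage 6, 6.27 in passage 7 and 5.64 in passage 8. The labels give a passage number but no separate culture date or array run, so passage, culture and array processing cannot be told apart. Each treatment has 1 array per passage, so the test does not measure the spread between repeated cultures of a passage.

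**Figure D3:**
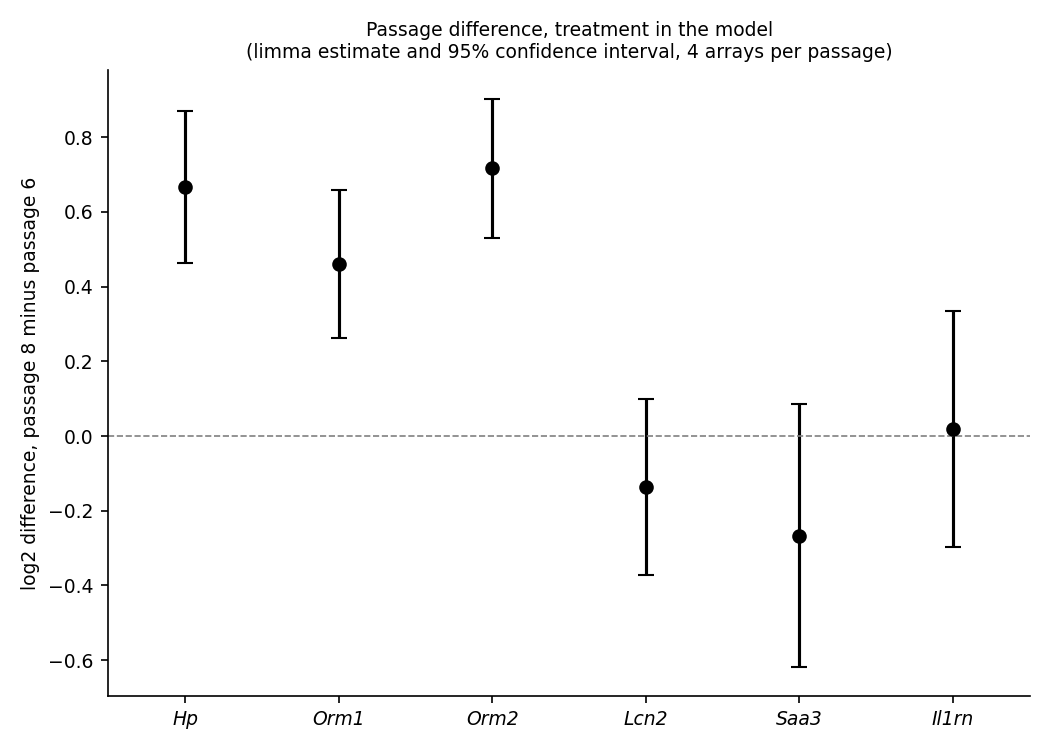
Log2 difference between passage 8 and passage 6 for each gene with treatment in the model, as the limma estimate with its 95% confidence interval (4 arrays per passage). The intervals of Hp, Orm1 and Orm2 lie above 0, and those of Lcn2, Saa3 and Il1rn include 0.

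Treatment and passage together left little spread in Hp, Orm1 and Orm2. For Hp, 51.6% of the sum of squares over the 12 arrays lay between treatments, 45.2% between passages and 3.15% in the rest. For Orm1 the shares were 43.1%, 52.7% and 4.20%, and for Orm2 40.5%, 57.5% and 1.99%. Lcn2 (57.1%, 12.1% and 30.8%) and Il1rn (72.4%, 0.967% and 26.6%) had more of their spread with treatment than with passage. Saa3 had 21.8% between treatments, 52.2% between passages and 26.0% in the rest. The 12 arrays include those through which genes were chosen, so the treatment shares are not independent of that choice.

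Across the 12 arrays, which share treatments and passages, Hp correlated with Orm2 at 0.92 (Pearson) and 0.94 (Spearman), Hp with Orm1 at 0.82 and 0.80, and Orm1 with Orm2 at 0.93 and 0.87. Without the 2 arrays farthest from the median the Pearson values were 0.88, 0.72 and 0.91. Lcn2 joined these 3 genes only once passage means were removed, with 0.78 to Hp, 0.80 to Orm1 and 0.70 to Orm2, beside 0.35, 0.27 and 0.17 in the values as they stood. Saa3 and Il1rn correlated with the other genes at -0.32 to 0.36 in the values as they stood. With passage means removed Saa3 correlated at 0.42 with Hp, 0.32 with Orm1, 0.44 with Orm2 and 0.24 with Lcn2, and Il1rn with the other genes at -0.32 to 0.21. Saa3 and Lcn2 correlated at 0.36, and at 0.62 without the 2 farthest arrays. The correlations describe 15 pairs and were given no p. They include the inhibitor and control arrays through which genes were chosen, so they are not independent of that choice, with or without passage means.

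Among 10042 other named clusters above the median signal, the profile most like the average of the 6 genes over the 12 arrays was that of Wfdc21 (Pearson 0.92), followed by Aldh3b2 at 0.91, Tubb5 at 0.89, Dlk1 at 0.88 and Kif18b at 0.88. The most opposite were Plaa, Slc43a2 and Med16, each at -0.91. Gene by gene, Tubb5 (0.98) and Pck1 (0.95) were closest to Hp, Irs1 (0.95) and Fmod (0.95) to Orm1, and Abcd2 (0.98) and Mcam (0.96) to Orm2. Dtx2 (0.90) and Usp40 (0.86) were closest to Lcn2, Cyp2d13 (0.94) and Tfeb (0.93) to Saa3, and Psmg1 (0.83) and Sec22b (0.82) to Il1rn. Wfdc21 averaged 7.04 ± 0.18 with ALA plus inhibitor, 7.36 ± 0.21 with ALA, 6.73 ± 0.27 with inhibitor alone and 7.42 ± 0.15 in control (SD, n = 3 each).

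Of the other acute-phase genes none was called in a treatment comparison. In ALA plus inhibitor against ALA, 6 of 27 measured genes had a higher mean and 21 a lower one, where 53.4% of all clusters were lower. The median was -0.08, with 0 called by limma at an adjusted p of 0.05 or under an unadjusted 0.01. Transferrin (Trf), the iron carrier of plasma, differed by -0.81 (limma adjusted p = 0.653) and the metalloreductase Steap4 by -0.41 (limma adjusted p = 0.684). Saa1 differed by -0.15, Saa2 by -0.30, Orm3 by 0.03, complement factor B (Cfb) by -0.08, Serpina3n by -0.07 and ceruloplasmin (Cp) by -0.02. In inhibitor against control 11 of the 27 had a higher and 16 a lower mean, where 50.8% of all clusters were lower. The median was -0.07 and the range -0.77 to 0.35. Steap4 differed by -0.71, Trf by -0.77, Cp by -0.42 and Cfb by -0.37 there, while Saa1 was at -0.04, Saa2 at -0.10, Orm3 at -0.11 and Serpina3n at 0.02. Of the 27 only Steap4 was under an unadjusted p of 0.01 in limma, as were 118 of 22104 clusters in the lower direction. For ALA against control the list had 10 higher and 17 lower means, where 47.8% of all clusters were lower. Cp was at -0.49 and the lipopolysaccharide-binding protein gene Lbp at -0.32, none called. Steap4 and Trf thus had values of the same sign as Hp in both inhibitor comparisons. So had Saa1, Saa2, Cfb and Cp, while Orm3 and Serpina3n had not, and none passed the adjusted threshold. In ALA plus inhibitor against control 6 of the 27 had a higher and 21 a lower mean, where 51.5% of all clusters were lower. There Steap4 (-0.69) and Trf (-1.02) were under an unadjusted p of 0.01 in limma. So were 115 of 22104 clusters in the lower direction.

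Genes of the signals that induce acute-phase proteins were also looked at, and none was called in a treatment comparison. Of 27 measured inducer and receptor genes, 20 had a higher and 7 a lower mean in ALA plus inhibitor against ALA. Their median was 0.08 and 0 were called, where 53.4% of all clusters had a lower mean. The interleukin-6 receptor genes Il6ra and Il6st differed by 0.00 and 0.09, and the interleukin-1 receptor gene Il1r1, which the Il1rn product occupies, by 0.00. The cytokine gene Il18 differed by 0.76 (limma adjusted p = 0.653) and the co-receptor gene Il1rap by 0.35 (limma adjusted p = 0.684). Il18 was dim and, like Il1rn, had its lowest mean with ALA alone, at 4.32 ± 0.32, against 5.08 ± 0.21 with ALA plus inhibitor (SD, n = 3 each).

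Of 18 transcription factor genes in these pathways, 8 had a higher and 10 a lower mean in ALA plus inhibitor against ALA, 0 called by limma. Of all clusters 53.4% had a lower mean. Cebpa, the C/EBP factor of mature adipocytes, averaged 9.81 ± 0.02 with ALA plus inhibitor and 10.06 ± 0.04 with ALA (SD, n = 3 each), a difference of -0.25 (limma adjusted p = 0.675). It averaged 9.78 ± 0.11 with inhibitor alone and 10.04 ± 0.01 in control (SD, n = 3 each). Cebpb differed by 0.11, Cebpd by 0.22, Stat3 by 0.10, the feedback inhibitor gene Socs3 by -0.19 and the glucocorticoid receptor gene Nr3c1 by -0.04 with ALA. Among 14 glucocorticoid target genes 8 were higher and 6 lower, with a median of 0.06 and 0 called.

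Receptors and partners of the 6 proteins had 6 higher and 10 lower means of 16 in that comparison, 0 called. Of all clusters 53.4% had a lower mean there. Mmp9, whose protein forms a complex with lipocalin 2, differed by -0.61 (limma adjusted p = 0.653) and Ager by -0.34 (limma adjusted p = 0.684), while the lipocalin 2 receptor gene Slc22a17 differed by 0.04. Of 14 relatives in the lipocalin and interleukin-1 families 3 were higher and 11 lower, with the apolipoprotein D gene Apod at -0.68 (limma adjusted p = 0.653) and Lcn3 at -0.52 (limma adjusted p = 0.684).

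Most cell type markers had lower means with the inhibitor under ALA too, where 53.4% of all clusters did. None was called by limma at an adjusted p of 0.05. In ALA plus inhibitor against ALA, 8 of 11 adipocyte genes had a lower mean, with Pck1, the glyceroneogenic enzyme, at -1.17 (limma adjusted p = 0.653). So had 7 of 8 preadipocyte genes, among them Thy1 at -0.34, Dlk1 at -0.30 and S100a4 at -0.46. The mean of the adipocyte list was 10.8 to 11.0 on the arrays of ALA plus inhibitor, 11.1 to 11.2 with ALA, 10.7 to 11.1 with inhibitor alone and 11.0 to 11.2 in control. Macrophage genes had 7 of 9 lower means, neutrophil genes 8 of 9 and hepatocyte genes 8 of 10, with gene means of 2.87 to 5.23, 3.68 to 6.45 and 3.44 to 5.86. Most genes of these lists lay under the median cluster mean of 6.19. The macrophage gene Mrc1, at a low signal, had a higher mean, by 0.38 (limma adjusted p = 0.659). Inhibitor alone against control gave lower means for 9 of 11 adipocyte, 8 of 8 preadipocyte and 7 of 9 macrophage genes. There 7 of 9 neutrophil and 5 of 10 hepatocyte genes were lower, beside 50.8% of all clusters. The macrophage list averaged 4.37 to 4.56 with ALA plus inhibitor and 4.46 to 4.73 with ALA. The part of these shifts in the values of Hp, Orm1 and Orm2 was not tested.

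Between passages some of the surrounding genes were called as well, beside 1.31% of all clusters called higher and 0.602% called lower. Called higher were 3 of 8 preadipocyte genes, 2 of 11 adipocyte genes and 1 of 14 lipocalin and interleukin-1 relatives. Called lower were 1 of 27 inducer and receptor genes and 1 of 18 transcription factor genes. No glucocorticoid target, partner, macrophage, neutrophil or hepatocyte gene was called. In passage 8 against passage 6, Apod rose by 0.64 (limma adjusted p = 0.00979), Pck1 by 0.92 (limma adjusted p = 0.0222) and Lep, the leptin gene, by 0.62 (limma adjusted p = 0.0377). The preadipocyte or matrix genes Col1a1, Sox9 and Pdgfrb rose by 0.48, 0.55 and 0.44 (limma adjusted p = 0.0159, 0.0378 and 0.041). Ddit3, a C/EBP family member of the stress response, fell by 0.50 (limma adjusted p = 0.0288) and the kinase gene Jak2 by 0.43 (limma adjusted p = 0.0378). None of the 27 other acute-phase genes was called by limma. The nearest was Serpina3n at -0.62 (limma adjusted p = 0.0588), of opposite sign to Hp, Orm1 and Orm2.

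**Figure D4:**
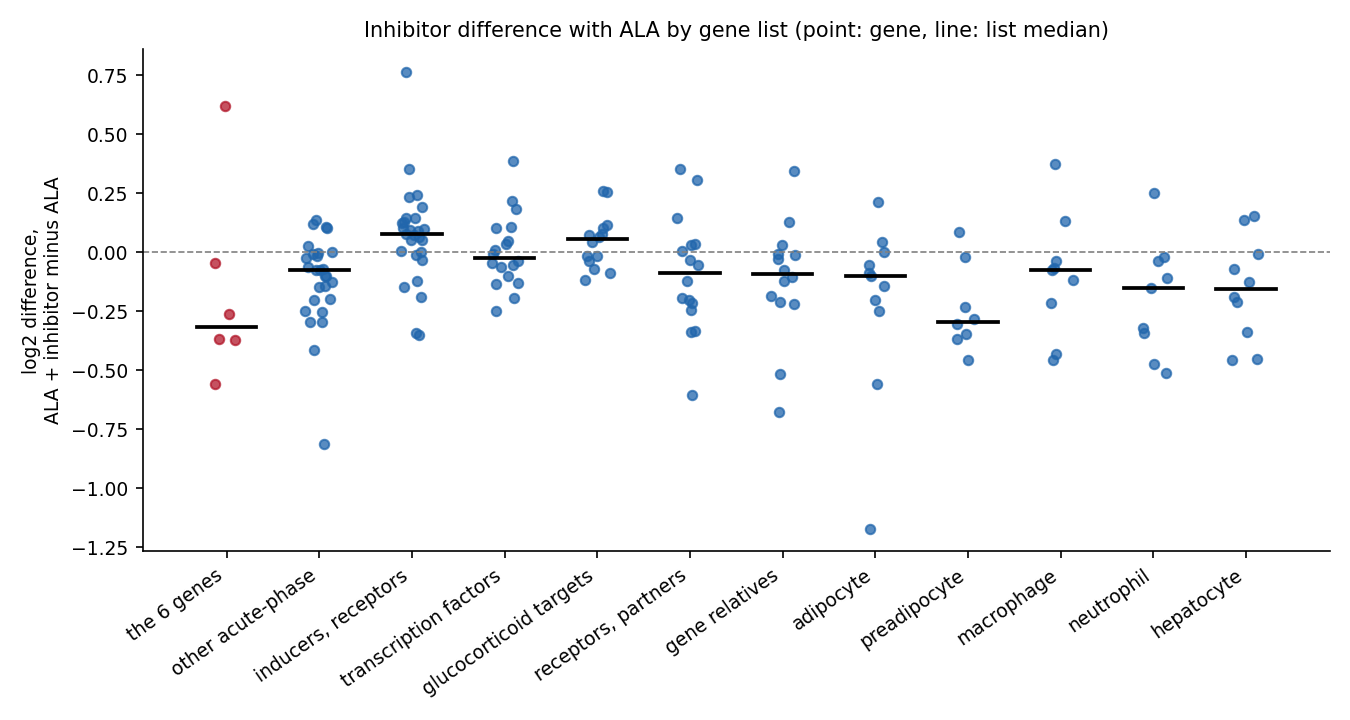
Log2 difference between ALA plus inhibitor and ALA for the 6 genes and for 11 gene lists, with a point for each gene and a line at the median. The 6 genes have a median of -0.31, other acute-phase genes one of -0.08, and no gene shown passed an adjusted p of 0.05.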

How the data were processed

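The authors deposited log2 signals of transcript clusters, and per the submitters' processing notes these came from RMA, with neither software version nor library file given in the sources used here. Per the labels' protocols, 100 ng of RNA (integrity number above 8.9) was labelled. Arrays give no depth, and 3 per group limit the precision. Symbols came from the array annotation (19509 clusters with 1 symbol, 2595 unnamed here). Some listed genes were not analysed here.

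All 22104 clusters entered limma 3.58.1 in R 4.3.3 with no filter, with 1 coefficient per treatment over 12 arrays (8 residual and 4.66 prior degrees of freedom). Tests were two-sided, with Benjamini-Hochberg adjustment over all clusters and a call at an adjusted p under 0.05. The unadjusted p under 0.01 of the series design is given beside it. For passage 8 against passage 6 the model held treatment and passage. As the series design speaks of weighted least squares but names no weights, array weights were tried as an alternative. The fits were tested on simulated data.

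The 6 genes and the lists were chosen with earlier results of these data known. The 6 genes are named throughout. Of each list, called genes are named. Where none was called, up to 3 with the smallest unadjusted p under 0.05 in limma were picked, and only some of these are named. A set of genes was also picked whatever their value, and is not named in every comparison. Likeness used Pearson correlation over 12 arrays, for the average profile the 5 highest and 3 lowest and for each gene the 2 highest. Same-passage deviations correlated above 0.1 in all passages for ALA plus inhibitor against ALA and against control, but not in all passages for the other comparisons. Inhibitor against control had 0.19, 0.08 and 0.36 in passages 6, 7 and 8, and ALA against control 0.01, 0.34 and 0.46. ALA plus inhibitor against inhibitor had 0.14, 0.09 and 0.27.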

Additional observations from a re-analysis of the deposited data

Results flagged for a closer look

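For Il1rn, the inhibitor difference with ALA minus that without ALA was 1.02 on the log2 scale. It was picked out because the gene was higher with the inhibitor in each passage under ALA (0.80, 0.42 and 0.64) and lower in each passage without ALA (-0.44, -0.21 and -0.54). Il1rn is dim on this array. For Adgre1, a macrophage marker at a low signal, the same quantity was 0.48, with 0.04, 0.34 and 0.02 by passage under ALA and -0.12, -0.46 and -0.49 without it. The limma adjusted p of this difference was 0.9999 for both genes.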

How the results depend on the processing

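No cluster was called at an adjusted p of 0.05 by limma in any treatment comparison under any alternative. Hp, Orm1, Orm2 and Lcn2 kept lower means and Il1rn a higher one in ALA plus inhibitor against ALA throughout, with leave-one-out ranges of -0.74 to -0.35 for Hp, -0.56 to -0.24 for Orm1, -0.58 to -0.21 for Orm2, -0.42 to -0.11 for Lcn2 and 0.49 to 0.79 for Il1rn. Saa3 was -0.04 there, 0.16 with array weights, 0.0913 with the passage block and no ALA array of passage 7 (an alternative added after seeing the data), and -0.21 to 0.22 with arrays left out. With passage as a block, 4 of the 6 genes were under an unadjusted p of 0.01 in place of 1, 3 without that ALA array as well, and 0 to 1 with arrays left out. In the other comparisons the passage pairing changed no adjusted call of the 6 genes. Leaving out the dimmest 30% of clusters dropped Il1rn, so counts over the 6 genes have no value there.

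Clusters under an unadjusted p of 0.01 numbered 325 for ALA plus inhibitor against ALA, 188 with only the arrays compared, 561 with the block and 135 to 624 with arrays left out. For inhibitor against control they numbered 189, 438 with array weights, 322 with the block, 110 without the dimmest clusters and 112 to 293 with arrays left out. For ALA against control they numbered 116, 77 with an intensity trend, 60 with only the arrays compared, 186 with the block, 178 with the block and no ALA array of passage 7, 51 without the dimmest clusters and 82 to 281 with arrays left out. For ALA plus inhibitor against inhibitor they numbered 161, 370 with array weights, 107 with the trend, 76 without the dimmest clusters and 99 to 233 with arrays left out. Clusters called between passages 8 and 6 numbered 423, 690 with array weights, 1163 with the trend, 719 without the dimmest clusters and 140 to 593 with arrays left out. Of the 6 genes 3 were called there, 0 with treatment left out of the model. The causes were not tested.

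Small differences turned sign. In ALA against control 5 of 6 genes were lower, 2 with array weights and 2 to 5 with arrays left out. There Hp was 0.0159 with array weights and 0.0171 with the block and no ALA array of passage 7 (-0.22 to 0.12 with arrays left out), Orm1 0.0575 with weights (-0.24 to 0.0554), Orm2 0.031 with weights (-0.26 to 0.12), and Saa3 -0.29 to 0.16 with arrays left out. In ALA plus inhibitor against inhibitor 0 of 6 were lower, 1 with array weights, 2 with arrays centred on their medians and 0 to 3 with arrays left out. There Hp was -0.0281 with weights and -0.0087 with centring (-0.22 to 0.22), Orm1 -0.0200 with centring (-0.19 to 0.19), Orm2 -0.0708 to 0.38 and Lcn2 -0.0239 to 0.18 with arrays left out. In ALA plus inhibitor against control Saa3 was -0.24 to 0.0835 and Il1rn -0.0372 to 0.34 with arrays left out. Il1rn between passages was -0.0095 with weights and -0.0676 to 0.14 with arrays left out. With 3 arrays a group, differences of this size were not resolved, and the low signal of Il1rn limits what its values show.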
